A study of Zea mays with 3 samples.

Results

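The 200 transcripts that gave the highest mean signal in maize roots treated with urea and a urease inhibitor are described here. They were chosen by averaging, for each transcript, the log2 intensities of its probes on each array and then over the 3 arrays, after leaving out the random control probes and transcripts with fewer than 2 probes, and taking the 200 highest means of 59750, which is 0.335% of the transcripts ranked. They came from 167 gene models and were measured by 433 of 139000 probes. The level that chose them is given below as a description and supports nothing by itself.

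The samples were roots of Zea mays cv. PR33T56, which the sample labels call a hybrid and the study's methods an inbred line. The plants had grown in aerated hydroponic solution and were 5 days old when they were moved to a solution whose only nitrogen source was 0.5 mM urea with 0.897 µM NBPT, an inhibitor of urease, the enzyme that splits urea into ammonia and carbon dioxide. Roots were taken after 8 h, 6 plants were pooled for each sample, and 3 biological replicates from repeated experiments were each hybridized to 1 array (Urea+NBPT). All 3 arrays belong to this 1 group, so no treated root could be compared with an untreated one, and nothing below is a response to NBPT.

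The brightest transcripts of a plant tissue are as a rule those that every growing cell needs in quantity, such as transcripts for cytoskeletal proteins, translation factors, ubiquitin and chaperones, together with those of the tissue's own work. In young maize roots that work includes cleaving the sucrose that arrives from the shoot and the seed, glycolysis, cell wall synthesis, and the movement of water and protons across membranes. On an array the brightness of a probe also depends on how strongly its sequence binds, so levels of different transcripts are not amounts of RNA that can be ranked against each other, and the ranks here are ranks of signal.

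The level of a transcript is the mean log2 intensity of its probes. The members lay between 15.61 and 14.75, with a median of 14.99, beside a median of 9.23 over all 59750 transcripts. The brightest probe value deposited was 15.86 (log2), and 153 of the 433 member probes came within 0.5 of it on at least 1 array. Of all 139000 transcript probes, 261 did so. The random control probes reached 8.15, 8.22 and 8.16 at their 95th percentile in the 3 replicates in turn and a single highest value of 11.42. The lowest level of a member on any array was 14.57, and 200 of 200 members lay above the 95th percentile on all 3 arrays, as did 62.1% of all transcripts. The members also all lay above the 99th percentile, as did 46.4% of all transcripts. The precision of a level is limited by how few arrays there were.

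**Figure D1:**
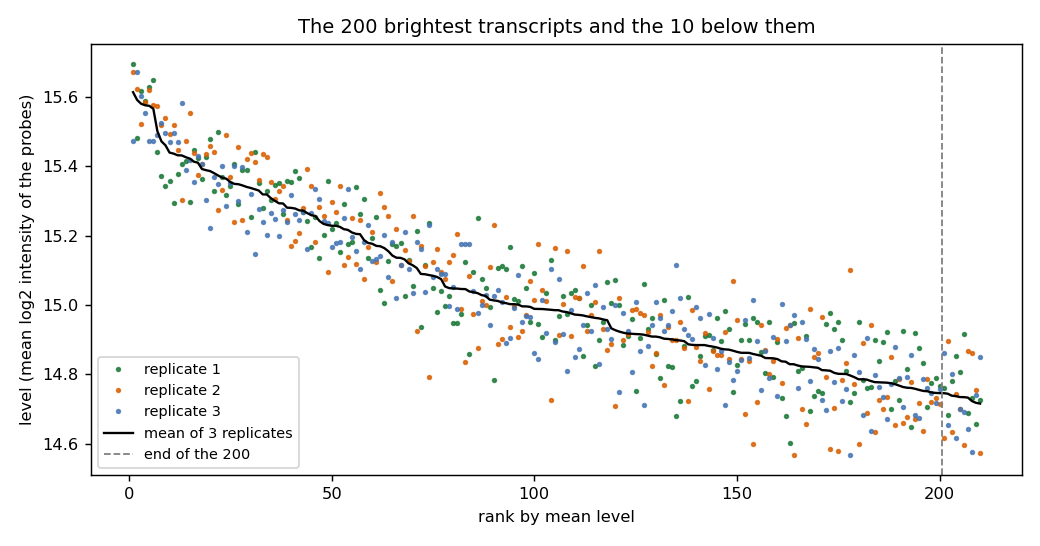
Level of each of the 200 brightest transcripts and of the 10 next below them (mean log2 intensity of the probes) against rank by mean level. Points are the 3 replicates and the line is their mean, which fell from 15.61 at rank 1 to 14.75 at rank 200 without a step at the dashed line that ends the 200.

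No gap separated the members from the transcripts below them. The 5 lowest members were GRMZM2G005036_T01 at 14.75, the elongation factor 1-alpha transcript GRMZM2G110509_T03 (elfa7/elfa8) at 14.75, GRMZM2G104325_T02 at 14.75, GRMZM2G130746_T02 at 14.75 and GRMZM2G058675_T02 (listed as rf2) at 14.75. The 5 just outside were GRMZM2G156110_T01 at 14.75, GRMZM2G178398_T01 at 14.74, GRMZM2G027451_T03 at 14.74, GRMZM5G833389_T02 at 14.74 and GRMZM2G146951_T01 at 14.73. These means differed by less than the SD over replicates of the first transcript outside, 0.12, so the border has no meaning beyond the rule.

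Of the 167 gene models, 133 (79.6%) were found in the reference gene table and 93 had a symbol other than a locus number, whereas 47.7% of all 39214 gene models of the array were found. The other 34 models, and 40 with only a locus number, are named here by their array identifier. A total of 15 groups of genes with known roles, put together by symbol after the list of members had been seen, took in 74 of the 200 transcripts from 54 gene models, and the counts in them are descriptions of the choice. On the whole array the same groups held 547 transcripts.

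The members with roles in carbon metabolism included enzymes of sucrose cleavage. The brightest transcript of all, GRMZM2G152908_T03, belongs to sus1, a sucrose synthase, which splits sucrose into fructose and UDP-glucose, and it had levels of 15.70, 15.67 and 15.47 in replicates 1, 2 and 3 (15.61 ± 0.12, SD, n = 3). The transcript GRMZM2G089713_T01 of sh1, the sucrose synthase named for the shrunken kernels of its mutant, had 15.39, 15.42 and 15.21. In both of these, replicate 3 was the lowest. A further sh1 transcript at 14.89 and one of the fructokinase frk2 at 14.85 made 4 members among the 16 transcripts of this group. The median SD over the 4 members was 0.11, beside 0.09 over all 200 members.

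Of glycolysis and fermentation, 5 of 34 transcripts on the array were members. The transcript GRMZM2G442658_T07 of adh1, alcohol dehydrogenase, which regenerates NAD+ when oxygen is short, had 15.65, 15.58 and 15.47, and GRMZM2G442658_T01 of the same gene had 15.24, 15.39 and 15.16. The enolase transcript GRMZM2G048371_T03 (eno2) had 15.13, 15.13 and 15.10, a range over the replicates of 0.03 that was among the 5 smallest of the 200. The aldolase ald1 was at 15.01 ± 0.11 and adh2 at 14.78 ± 0.15 (SD, n = 3). Replicate 3 was the lowest in each of these 5 transcripts, and in 71 of the 200 members, beside 30.2% of all transcripts.

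Enzymes around malate and the pentose phosphate pathway gave 8 members of 19 transcripts. The brightest was GRMZM2G440208_T01 of pgd3, a 6-phosphogluconate dehydrogenase of the oxidative pentose phosphate pathway, with 15.36, 15.49 and 15.47. The cytosolic malate dehydrogenase gene GRMZM2G415359 (mdh4/mdh5) had 2 members, at 15.41 ± 0.03 and 14.98 ± 0.06 (SD, n = 3). The malate dehydrogenase mdh2 was at 14.96, pgd2 at 14.90, the PEP carboxylase pep7, which fixes bicarbonate into oxaloacetate, at 14.87, pdh1 at 14.86 and PDHE1-B, a pyruvate dehydrogenase E1 beta subunit by its symbol, at 14.82. The median SD of these 8 was 0.06, beside 0.09 over all 200 members.

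Cytoskeletal proteins supplied 11 members. Alpha and beta tubulin, the subunits of microtubules, had 9 members of 42 transcripts, and 5 of the 9 belonged to 1 gene model, GRMZM2G153292, which the reference table pairs with both TUA1 and TUA2, so that the signal cannot be assigned to either. Its brightest transcript, GRMZM2G153292_T03, was second of all with 15.48, 15.62 and 15.67 (15.59 ± 0.10, SD, n = 3), and GRMZM2G153292_T04 and GRMZM2G153292_T02 followed at 15.46 and 15.39. The other tubulin members were tua4 at 15.19, tub3 at 15.11, tua6 at 15.05 and tub6 at 15.04. Actin, which forms microfilaments, had 2 members of 16 transcripts, both of Actin-7, at 15.37 ± 0.04 and 15.05 ± 0.07 (SD, n = 3).

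Of the genes of translation, elongation factor 1-alpha, which brings aminoacyl-tRNA to the ribosome, had 7 members of 11 transcripts, between 15.43 and 14.75. The brightest, GRMZM2G154218_T02 of elfa3, had 15.38, 15.45 and 15.47, and 4 more came from the gene model GRMZM2G153541 (EF1A). Ribosomal proteins had 6 members of 94 transcripts. They included rps6-2 at 15.26 ± 0.08, RP-P0 of the ribosomal stalk at 14.99 ± 0.22, the transcript listed as rpL7 at 14.92 ± 0.01, and a pair from GRMZM2G054136 (rps6, with more than 1 reference gene) at 14.77 ± 0.11 and 14.76 ± 0.14 (SD, n = 3). The RP-P0 transcript GRMZM2G066460_T01 had 15.13, 14.73 and 15.10, so replicate 2 stood below the other 2, while the rpL7 transcript GRMZM2G135654_T03 had 14.91, 14.92 and 14.92.

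Ubiquitin, the small protein that marks others for degradation, had 7 members of 13 transcripts, from 3 gene models that encode near-identical proteins and may share signal. The brightest, GRMZM2G409726_T03 (MUB3), had 15.36, 15.41 and 15.41. The lowest, GRMZM2G419891_T05, had 14.68, 14.94 and 14.90. Replicate 1 was the lowest in 6 of the 7, beside 28.6% of all transcripts. Histone H4 gave 2 members of the 22 histone transcripts, at 14.98 and 14.82, both from a gene model paired with several H4 genes.

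Chaperones had 5 members of 26 transcripts. A pair from hsp70-4, a member of the HSP70 family that binds unfolded proteins, ranked next after the brightest tubulin. GRMZM2G340251_T04 had 15.62, 15.52 and 15.60, and GRMZM2G340251_T02 had 15.59, 15.58 and 15.55, so the 2 transcripts overlapped in their replicates. The endoplasmic reticulum chaperones bip1 and calnexin (CNX) were at 14.88 and 14.79, and the transcript listed as cdj2 was at 14.76.

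Membrane transport was seen in aquaporins, the water channels, and in proton pumps. PIP2-6 (GRMZM2G047368_T02), a plasma membrane aquaporin, had 15.42, 15.47 and 15.39, and PIP1-5 (GRMZM2G081843_T01) had 15.17, 15.34 and 15.27. The tonoplast aquaporin TIP2-2 (GRMZM2G056908_T01) had 14.72, 15.10 and 14.57, and replicate 2 exceeded the average of the remaining 2 by 0.46. These 3 were all the aquaporin members among 51 transcripts, and replicate 2 was the highest in each. Over the 51 it was the highest in 25 and the lowest in 11, beside 33.8% and 41.2% of all transcripts. The plasma membrane H+-ATPases mha4 and mha2, whose proton gradient drives the uptake of nutrients, were at 15.35 ± 0.09 and 15.32 ± 0.11 (SD, n = 3). They are 2 of the 4 H+-ATPase transcripts matched by symbol, and replicate 2 was the highest in both and in 3 of the 4.

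Cell wall genes had 6 members of 70 transcripts. CslF6-1, of the cellulose synthase-like family that makes mixed-linkage glucan in grasses, had 15.44, 15.41 and 15.15 (GRMZM2G110145_T03), with replicate 3 below the others. The brittle stalk 2-like gene Bk2L3 was at 15.29 ± 0.04, a hydroxyproline-rich glycoprotein (HRGP) of the wall at 15.09 ± 0.04, the cellulose synthases CesA-9 and CesA-7 at 14.96 ± 0.12 and 14.92 ± 0.05, and the reversibly glycosylated polypeptide RGP at 14.93 ± 0.06 (SD, n = 3). CesA-2 at 14.68, CesA-1 at 14.56 and CesA-8 at 14.50 were close below the border.

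Defence and oxidative metabolism completed the groups. The beta-glucosidase glu1, which releases defence compounds from their glucosides, had 2 members, and the brighter, GRMZM2G016890_T04, had 15.04, 15.32 and 15.14. The lipoxygenase lox1 was at 14.97 ± 0.08. The cysteine protease mir3 (GRMZM2G166281_T01) had 14.60, 14.94 and 14.94, with replicate 1 apart from the other 2. Catalase, cat1, which breaks down hydrogen peroxide, had 15.14, 15.28 and 15.31. The haemoglobin GLB1 was at 14.92, the ferredoxin fdx3 at 14.88 and the glyoxalase glx1 at 14.82.

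**Figure D2:**
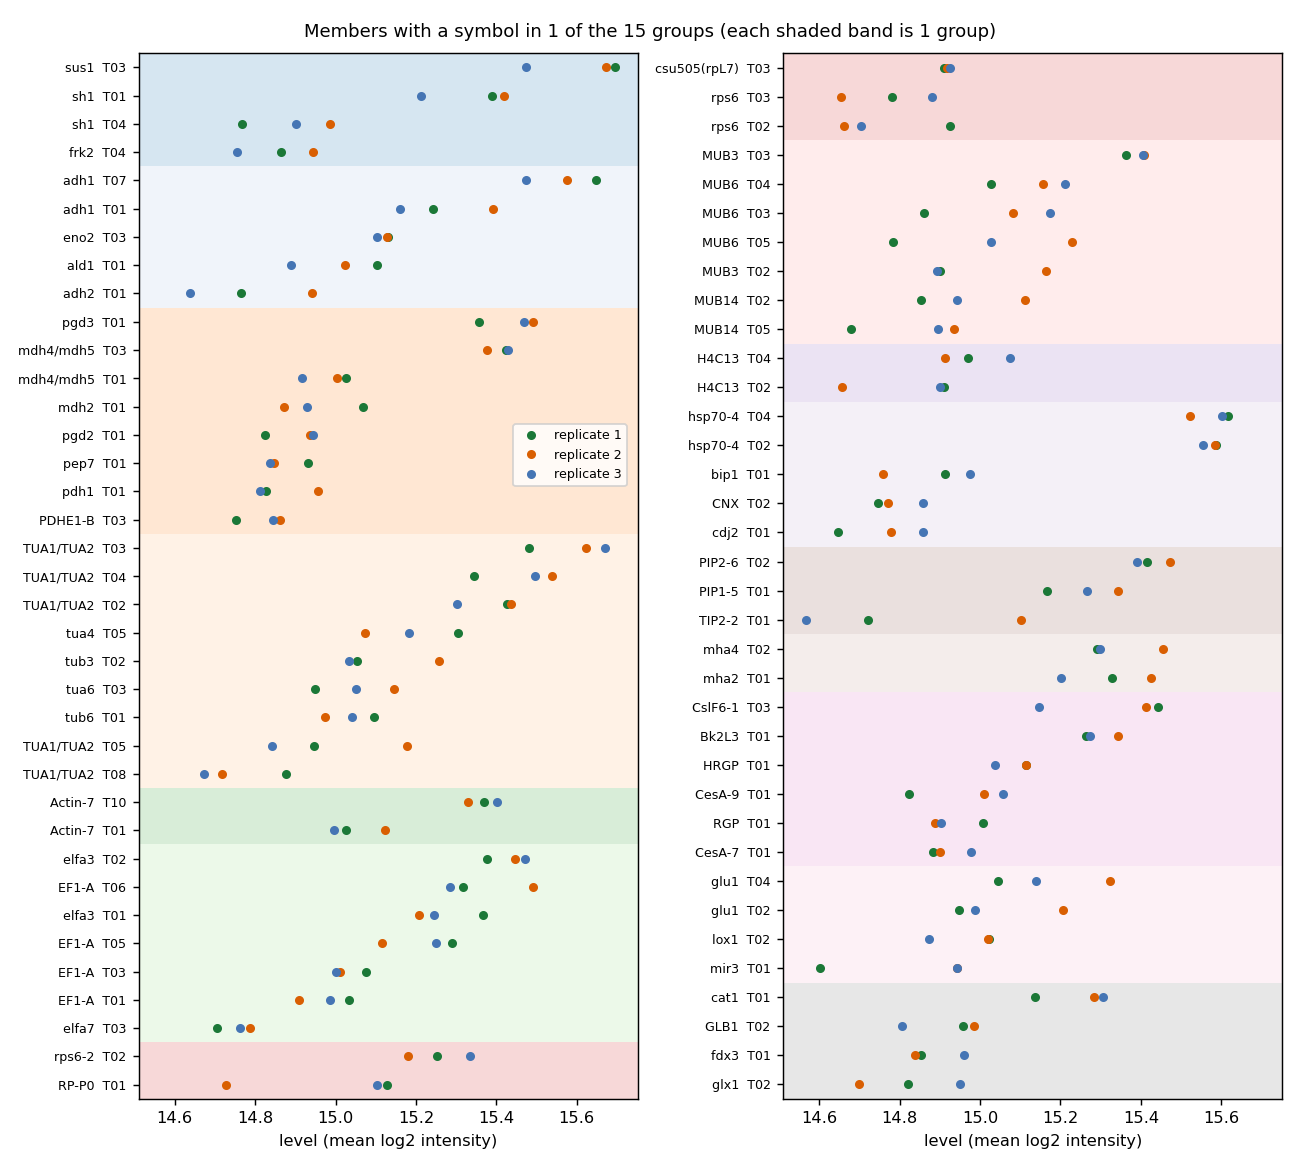
Level (mean log2 intensity) in each of the 3 replicates for 73 of the 74 members that fell in 1 of the 15 groups, labelled by symbol and transcript number, with 1 shaded band per group in the order of the text. Points of 1 row lie close together in most members. The widest row is the aquaporin TIP2-2, with 14.72, 15.10 and 14.57.

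Among the 20 brightest were also transcripts whose role is not described here. AC209208_3_FGT002 was at 15.57, GRMZM2G149751_T06 (csu503(met)) at 15.50 with a second transcript of the gene at 15.39, and GRMZM2G134256_T01 at 15.47. GRMZM2G305856_T02 was at 15.44, GRMZM2G343543_T03 at 15.43, GRMZM2G181371_T02 at 15.42 and GRMZM5G892124_T01 at 15.41. The gene sam2 (GRMZM2G154397) had 3 members, at 15.28, 15.22 and 15.09. Outside the groups lay an adenine nucleotide translocator, ANT1, which exchanges ADP and ATP across the inner mitochondrial membrane, with members at 14.92 and 14.86, and an annexin, anx2, at 14.86.

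Keyword lists searched over the same symbols gave fewer matches, because the reference table holds short symbols and no descriptions. They found 30 of the 200 members. Actin and tubulin had 11 of 63 transcripts, ubiquitin 7 of 13, ribosomal proteins 5 of 77, aquaporins 3 of 48, chaperones 2 of 20, glycolysis and fermentation 1 of 4 and redox enzymes 1 of 56. For 14-3-3 proteins and calmodulin it was 0 of 60. Of the 17 lists, 5 matched no transcript of the array, among them those of nitrogen assimilation and of the phenylpropanoid enzymes, so nothing can be said of these.

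The labelled tissue was checked with markers. The root list matched 8 genes, not all that were planned. Of its 10 transcripts, 8 were above the random control probes (95th percentile) on all 3 arrays, beside 62.1% of all transcripts. The median level of all 10 was 11.81. PIP1-5 was the only member among the 10, while the root hair gene rth3 was at 12.75 and 11.68, the nitrate transporter nrt2 at 12.41, and the aquaporin TIP2-3 at 6.94. The green leaf list had 10 of 27 transcripts above the controls with a median of 7.62. The list of endosperm and pollen had 5 of 48 with a median of 7.02, and 0 of either list were members. The planned pollen gene was not matched, so this list says nothing of pollen, and it also took in the LEAFY-like gene zfl1 through its symbol fl1. An exception in the leaf list was the gene GRMZM2G306345 of pyruvate orthophosphate dikinase (PPDK), an enzyme of the C4 cycle. Its symbols include both C4ppdkZm1 and cyppdkZm1, so the signal cannot be assigned to the C4 form. Its 3 transcripts lay at 14.53, 13.85 and 13.71, above every transcript of the root list but PIP1-5. The log2 of the summed intensity of the leaf list was 16.38, 15.66 and 15.64 in replicates 1, 2 and 3, of which PPDK made up 90.4%, 83.5% and 82.4%, and without PPDK it was 12.99, 13.06 and 13.14. That of the root list was 16.04, 16.27 and 16.04, and the part of these levels in the differences between replicates was not tested.

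The array carries 449 transcripts of the 167 gene models, and 120 of these models have more than 1. Of the 449, 249 were not among the 200. Their median level was 11.41, beside 9.23 over all transcripts, 33 of them were among the next 200 by rank, and 50 of them (20.1%) were not above the random control probes on all 3 arrays, beside 37.9% of all transcripts. In the 120 models the highest and the lowest transcript differed by a median of 5.73 on the log2 scale, from 0.03 to 9.58, and in 3 models every transcript was a member. Over the 11795 gene models of the array with more than 1 transcript the median difference was 2.52, but the rule fixes 1 end of the difference in the 120 models at a high level. Such differences compare different probes, which can bind with different strength or lie in a part that the RNA lacks, and these cannot be told apart here.

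The 3 gene models with the most members were the tubulin GRMZM2G153292 with 5 of 9 transcripts, the elongation factor GRMZM2G153541 with 4 of 5 and the ubiquitin GRMZM2G118637 (MUB6) with 3 of 5, as many as sam2 had of 4. In the tubulin gene the remaining transcripts ran from 13.98 for GRMZM2G153292_T09 down to 6.62 for GRMZM2G153292_T01, which had 7.05, 6.27 and 6.53. In the ubiquitin gene GRMZM2G118637_T02 had 5.63, 5.86 and 5.64, while its 3 members lay between 15.01 and 15.13. The Actin-7 gene had 12 transcripts, of which 2 were members and the other 10 lay between 13.09 and 7.39. The sam2 transcript outside the 200, GRMZM2G154397_T03, had 10.60, 12.22 and 10.32, and replicate 2 stood far above the other 2, whereas in the 3 sam2 members no replicate departed in this way.

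**Figure D3:**
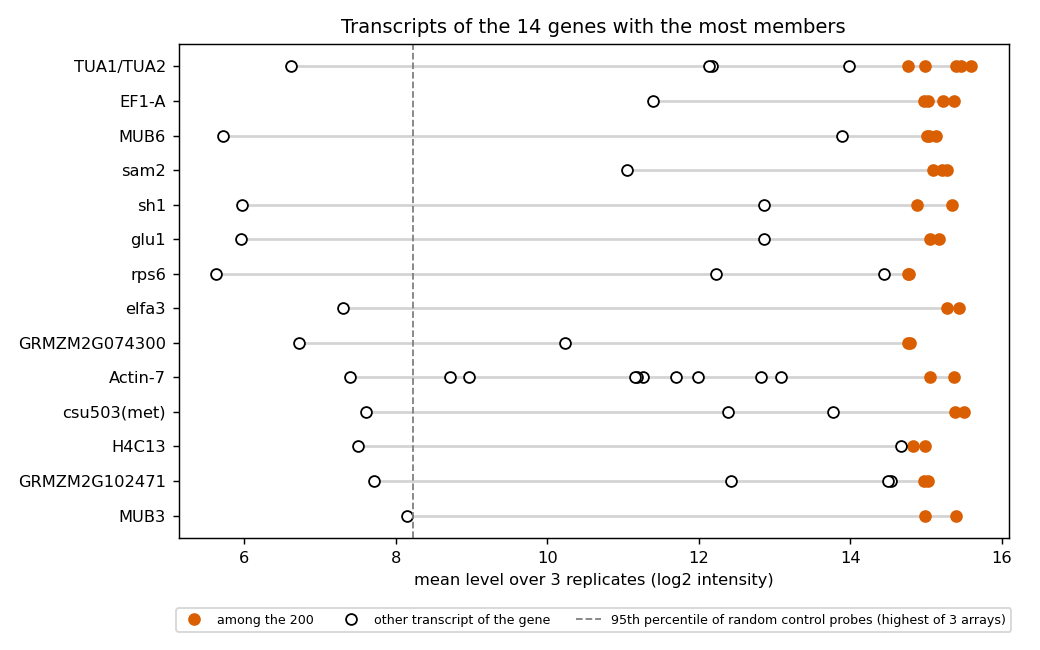
Mean level over the 3 replicates (log2 intensity) of every transcript of 14 gene models. They are the 4 models with 3 or more members and a part of the 22 models with 2 members. Of those 22, the models with the widest difference between their transcripts were taken, so models whose transcripts lie close together are not shown. Filled points are among the 200, open points are other transcripts of the same gene model, and the dashed line is the highest of the 3 arrays' 95th percentiles of the random control probes (8.22). In the tubulin gene in the top row, filled and open points span 15.59 to 6.62.

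A similar contrast was found for MMT1, a methionine S-methyltransferase, for which the reference table lists 2 gene models under 1 gene. The member GRMZM2G098039_T01 had 14.70, 14.99 and 14.78 (14.82 ± 0.15, SD, n = 3). The other model, GRMZM2G098031_T01, had 11.08 in replicate 2, with a mean of 9.58 ± 1.31 (SD, n = 3). Replicate 2 was the highest in both, by 0.25 over the mean of the others in the member and by 2.25 in the other.

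Members varied little between the replicates. Their median SD was 0.09 (log2, n = 3), beside 0.11 for the next 200 transcripts by level and 0.20 for all 59750. Over all transcripts the median SD rose from 0.13 below a level of 6 to 0.23 between 8 and 10 and fell again to 0.13 between 13 and 14, so that the small SD of the members continues a course seen across the array. The brightest probes lie near the upper end of the intensities, and the part of that limit in the small SD was not tested. The highest and lowest replicate differed by less than 0.1 in 48 of the 200, for which the share of all transcripts was not counted. They differed by more than 0.25 in 45 of the 200, beside 70.6% of all transcripts. They differed by more than 0.5 in 1 member, beside 33.1% of all transcripts.

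**Figure D4:**
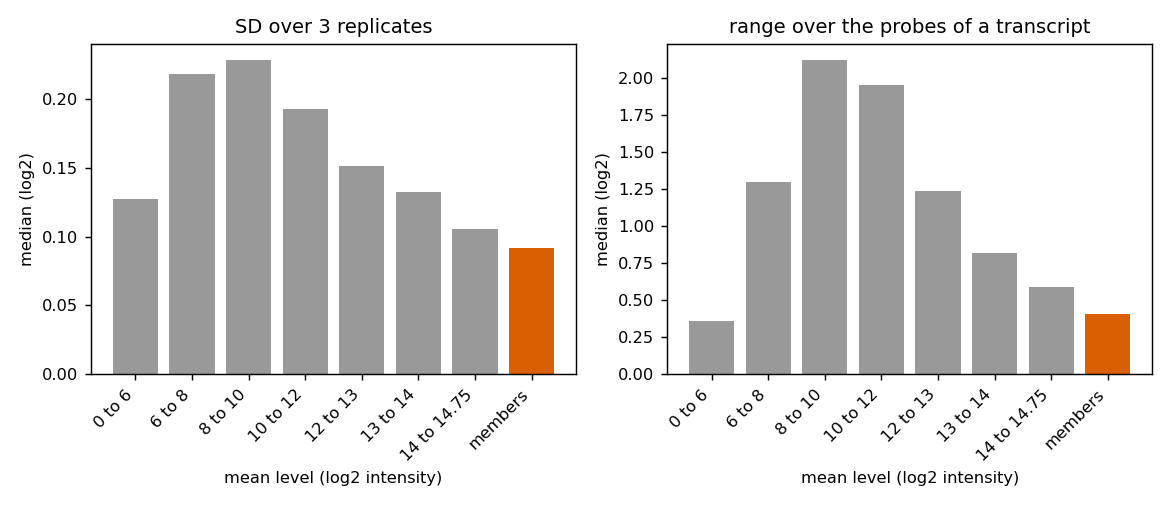
Median SD over the 3 replicates (left) and median range over the probes of a transcript (right), both in log2 units, for all transcripts by mean level, with the members in orange. Both measures were largest between 8 and 10 (0.23 and 2.13), and the members had 0.09 and 0.41.

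A replicate more than 0.5 higher than the average of the other 2 was found in 0 of the 200 members, beside 4.67% of all transcripts for replicate 1, 8.82% for replicate 2 and 5.69% for replicate 3. A replicate more than 0.5 lower was also found in 0 members, beside 5.92%, 8.74% and 5.94%. In the next 200 transcripts by level, the counts for replicates 1, 2 and 3 were 2, 1 and 0 above and 0, 0 and 1 below, so such departures were rare there too. At a difference of 0.25, chosen after the ranges had been seen, replicate 1 lay above in 2 members, replicate 2 in 8 and replicate 3 in 1, beside 18.9%, 20.5% and 18.8% of all transcripts. Replicate 2 lay more than 0.25 below the others in 11 members, and replicates 1 and 3 in 5 each, beside 25.5%, 17.8% and 17.7%. In the next 200, replicates 1, 2 and 3 lay more than 0.25 above in 13, 17 and 6 and below in 13, 10 and 9. Replicate 1 was the highest in 81 members, replicate 2 in 71 and replicate 3 in 48, beside 33.9%, 33.8% and 32.3% of all transcripts.

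The 10 members with the widest range went in both directions. In TIP2-2 and in the ubiquitin transcript GRMZM2G118637_T05 (14.78, 15.23 and 15.03) replicate 2 was the highest. Replicate 2 was the lowest in 7 others, which were RP-P0, GRMZM2G126928_T01 (15.24, 14.79 and 15.23), GRMZM2G385945_T01 (14.96, 14.60 and 15.01), GRMZM2G077744_T01 (14.95, 14.57 and 14.97), GRMZM2G067456_T02, GRMZM2G031545_T03 and GRMZM2G156110_T02. In GRMZM2G073584_T01 the replicates were at 14.68, 14.90 and 15.11, with replicate 2 between the others. The 5 members with the smallest range were AC234161_1_FGT001 (15.27, 15.28 and 15.27), the rpL7 transcript, GRMZM2G011742_T01 (from 14.99 to 15.02), AC203173_3_FGT004 (15.34, 15.37 and 15.35) and eno2.

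Replicate 2 departed from the others in opposite directions in different groups. Ribosomal protein transcripts were lower in it. Their median difference from the mean of the other replicates was -0.28 over all 94 transcripts from 41 gene models and -0.13 over the 6 members, and replicate 2 was the lowest in 66 of the 94 (70.2%) and in 5 of the 6, beside 41.2% of all transcripts. Replicate 1 departed the other way by a similar amount, at 0.26 over all 94 transcripts. It was the highest in 67 of the 94 (71.3%), beside 33.9% of all transcripts. Ubiquitin transcripts were higher in replicate 2, by a median of 0.22 over all 13 and 0.15 over the 7 members. They also departed in replicate 1, at -0.17 over all 13 and -0.17 over the 7 members. Replicate 1 was the lowest in 11 of the 13, beside 28.6% of all transcripts. In replicate 2 the group of glu1, lox1 and mir was higher by 0.23 over 29 and 0.20 over 4 members. The H+-ATPases were higher by 0.16 over 4 transcripts, and the histones lower, at -0.14 over 22. The median over all transcripts was -0.03. With 1 sample for each replicate these differences have no test, and a group's transcripts share arrays and, in part, genes.

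The difference of replicate 2 from the others also varied across the surface of the arrays. In the random control probes the difference of replicate 2 from the others correlated with the column of the probe at 0.54 over 1663 probes, in all transcript probes at 0.31, in the ribosomal protein probes at 0.33 and in the member probes at 0.16, where probes of 1 array are not independent. After a plane over the columns and rows was subtracted, a step added after seeing the data, the ribosomal protein median was -0.28 as before and the ubiquitin median fell from 0.22 to 0.07. The remaining groups were not read again after this step.

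**Figure D5:**
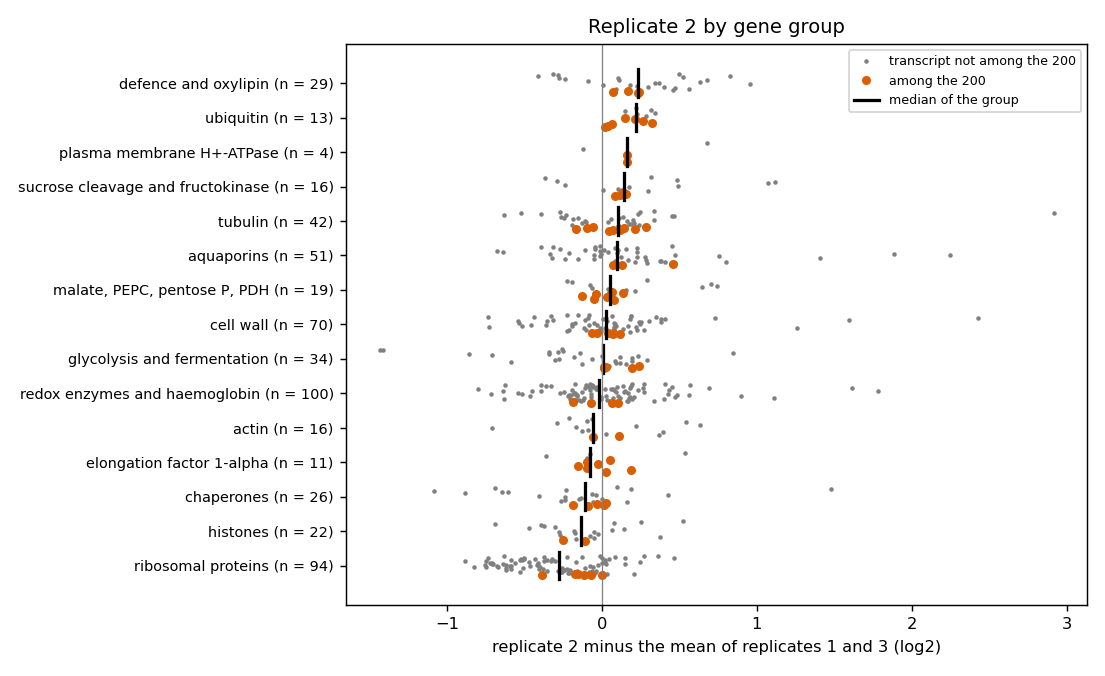
Difference of replicate 2 from the mean of replicates 1 and 3 (log2) for every transcript of the 15 groups, with n transcripts per group, before any correction for the array surface. Orange points are among the 200, grey points are not, and the black line is the median of the group, which ran from -0.28 in the ribosomal proteins to 0.23 in the group of defence and oxylipins.

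Membership was then read in an array that had not been used for the choice. Of 200 transcripts chosen on replicates 2 and 3, 170 were among the 200 highest of replicate 1. The corresponding counts were 166 for replicate 2 and 177 for replicate 3, and the transcripts so chosen ranked no lower than 396, 506 and 378 in the array left out. Of the members, 150 were among the 200 highest on each of the 3 arrays, and these same 150 are 0.251% of all transcripts. The rule used all 3 arrays, so this count is a description of the choice. Across the members the levels of replicates 1 and 2 correlated at 0.77, those of 1 and 3 at 0.83 and those of 2 and 3 at 0.80, over a span of levels of only 0.87, and transcripts are not independent replicates.

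The probes of a member agreed more closely than those of most transcripts, which the choice on a mean favours. The range over the probes of a transcript had a median of 0.41 in the members, 0.51 in the next 200 and 1.49 over all. It was above 1 in 26 members (13%), beside 64.1% of all transcripts. Of the 433 member probes, 429 had a mean above 14, which follows largely from the choice, since the lowest member mean was 14.75. Members had 2 probes in 167 cases (83.5%) and 3 in 33, while 67.4% of all transcripts have 2. In members with 2 probes the probe at the higher position was the brighter in 85 of 167 (50.9%), beside 45.3% over the array.

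The 5 members with the widest range over probes were adh2, ald1, TIP2-2, GRMZM2G084881_T01 and GRMZM2G055276_T02. In adh2 the probe starting at position 1590 had a mean of 13.57 and the others 15.22 and 15.55. In ald1 the probe at position 209 had 13.88 and the others 15.73 and 15.41. In TIP2-2 the probe at position 30 had 13.72 and the others 15.57 and 15.10. In each of these 3 transcripts 1 dim probe stood apart from 2 bright ones, and it lay at either end of the transcript. The dim TIP2-2 probe was also the one in which the replicates differed most, with 13.51, 14.31 and 13.35, while the brightest had 15.53, 15.62 and 15.54. The remaining probe, at position 912, had 15.12, 15.38 and 14.81, with replicate 2 highest and replicate 3 lowest as in the dim probe.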

How the data were processed

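RNA of Urea+NBPT roots was labelled with Cy3 and hybridized to 3 NimbleGen maize arrays of transcripts predicted from the B73 filtered gene set 5b. The authors extracted 1 intensity per probe with NimbleScan, and the labels name RMA without a version. The deposited intensities are linear and appear to be quantile normalized already, since the sorted values differed by at most 0.183% between arrays (the methods speak of raw signal). The arrays normalized together are not stated. The deposited value table differed from the array files in 0 probes (tolerance 0.006).

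Log2 intensities were averaged with Python 3.11.15 and pandas 2.3.3, without further normalization. No background was subtracted. Alternatives used R 4.3.3 and limma 3.58.1 (normexp with an offset of 50, quantile normalization, median polish), and the steps were tested on simulated data. Symbols came from the RefSeq gene table of maize (assembly Zm-B73-REFERENCE-NAM-5.0), a build other than that of the array, so no coordinates are given. The transcripts named are the 20 brightest, the 5 brightest of each keyword list, the 10 widest and 5 narrowest ranges over replicates, the 5 widest over probes, those at the border, markers, and the 3 genes with most members, and the symbol groups were added. MMT1, ANT1 and anx2 were named outside these rules. Members and lists were chosen with earlier results of these data known. For 1 member the values are not reported here.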

Additional observations from a re-analysis of the deposited data

How the results depend on the processing

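The set of 200 was the same with the arrays scaled to one median, quantile normalized again, read from the authors' value table or corrected with a plane over the surface. For the set, these settings test little. Scaling and the plane leave the mean of each probe over the arrays unchanged by construction. The intensities already appeared quantile normalized, and the value table matched the array files. Between 187 and 193 members were kept when 1 replicate was left out, 189 when the highest of 3 probes was dropped, 178 with the median of the probes and 177 with normexp, quantile normalization and median polish, and 163 members were in the set under all of these. When only transcripts with 3 or more probes were ranked, 33 members remained by construction, the keyword lists found 7 transcripts in place of 30, the median range over probes was 0.83 in place of 0.41, and 1 transcript had a replicate more than 0.5 above the others in place of 0. That count was 0 to 1 when 1 replicate was left out and 11 at a difference of 0.25. Aquaporins had 5 members in place of 3, and ribosomal proteins 3 in place of 5 by keyword, both with the median of the probes and with median polish. The cause was not tested. The other 76 values for the main results moved by less than 1.5 times or by less than the spread. They include values from the settings above that could hardly change the set.

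The 3 arrays, all of 1 treatment, limit what can be said of any transcript, and the intensities near the upper end limit how far bright transcripts can be told apart. No paired analysis was possible because the samples form 1 group. Motifs in promoters were not analysed here, since no promoter sequences were used.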
